A study of Mus musculus with 9 samples.

Results

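The locus described here is the imprinted cluster of Peg13, Kcnk9 and Trappc9 on mouse chromosome 15, read through the CTCF peaks that lay in it. A peak belonged to the locus when it lay between the first and last base of the 3 genes (GRCm38, GENCODE M21 annotation) or within 20 kb of either end, a window of 600.1 kb. This rule took 108 of the 225769 merged CTCF peaks and used no measured value. Peg13 is a paternally expressed non-coding RNA whose start lies in a germline differentially methylated region inside an intron of Trappc9, and this region is known to bind CTCF on its unmethylated allele. Kcnk9 encodes TASK3, a potassium leak channel expressed from the maternal allele in brain, and Trappc9 encodes a subunit of the TRAPP complexes of vesicle traffic. CTCF is a zinc finger protein that anchors chromatin loops and insulates domains, and methylation of CpG bases in its motif can block its binding.

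CTCF was measured by ChIP-seq in female primary neural stem cells (NSCs) grown from the cortex of C57Bl/6 embryos at E14.5, to ask whether the state of Smchd1, a chromatin protein with roles in X inactivation and imprinting, was accompanied by a change in CTCF binding. The control cells were Smchd1 GFP/GFP, with 3 libraries, so both alleles carried a GFP tag. The MommeD43-GFP cells, with 3 libraries, were homozygous for the MommeD43 missense change recreated on the same tagged allele. The null cells, with 2 libraries, were Smchd1 del/del, made in culture from floxed NSCs with a Cre retrovirus and puromycin selection, and carried no GFP tag. Loss of Smchd1, Cre, selection and the missing tag cannot be told apart in the null column. The series also held 1 input library, for which the table has no column.

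The table gave 1 value per peak and genotype, the authors' mean over that genotype's libraries, in log2 RPM (reads in the peak per 1000000 reads of the library) and not divided by its length. Single libraries could not be separated, so no SD between replicates and no test was possible, and no difference below has a p-value. The lowest values of each column matched geometric means of whole read counts over the libraries, at a fixed depth. They gave a geometric mean library size of 41700000 reads in control, 49200000 in MommeD43-GFP and 50000000 in null. Errors (±) below are the counting standard error of a log2 difference from these depths, and intervals are 95% counting intervals. Both cover counting error only and leave out the spread between cultures. Both differences from control use the same control column, so a like direction in them is not independent. Smchd1 itself and the parental alleles were not measured in this table.

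The 3 genes all lie on the minus strand, so their starts are at the higher coordinate. Kcnk9 (ENSMUSG00000036760.7) spans chr15:72501089-72546340, Trappc9 (ENSMUSG00000047921.16) spans chr15:72589620-73061204, and Peg13 (ENSMUSG00000106847.1) spans chr15:72805600-72810324 within intron 16 of Trappc9. Trappc9 takes up 471.6 kb of the window, Kcnk9 takes 45.3 kb and Peg13 takes 4.7 kb.

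Windows around matches to the CTCF motif are shown for the peaks the results turn on. The motif was a matrix of 19 bases learned from the strongest peaks of other chromosomes, and a match scored at least 12 bits. Each line runs 5′ to 3′ on the stated strand of GRCm38, with the match in capitals. The first pair lies in the peak at the Peg13 start, the next is the highest scoring match of the locus, upstream of Kcnk9, and the others come from peaks named below.
Peg13 start, site inside the gene, chr15:72810042-72810141, minus strand: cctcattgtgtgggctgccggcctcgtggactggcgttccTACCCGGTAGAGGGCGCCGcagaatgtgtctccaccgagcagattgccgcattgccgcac
Peg13 start, site upstream of the gene, chr15:72810326-72810425, minus strand: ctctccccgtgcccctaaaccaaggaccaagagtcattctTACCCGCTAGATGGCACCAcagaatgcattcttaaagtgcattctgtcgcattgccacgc
upstream of Kcnk9, chr15:72549527-72549626, plus strand: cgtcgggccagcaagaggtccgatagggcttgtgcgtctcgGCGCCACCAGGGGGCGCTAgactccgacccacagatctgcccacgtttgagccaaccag
Kcnk9 intron 1, chr15:72517186-72517285, minus strand: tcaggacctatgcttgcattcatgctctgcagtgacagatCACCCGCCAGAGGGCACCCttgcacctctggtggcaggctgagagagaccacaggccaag
Trappc9 exon 6 peak, chr15:73023043-73023142, minus strand: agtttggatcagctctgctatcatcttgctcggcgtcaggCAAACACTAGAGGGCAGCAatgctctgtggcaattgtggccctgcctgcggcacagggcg
Trappc9 intron 20, chr15:72680686-72680785, minus strand: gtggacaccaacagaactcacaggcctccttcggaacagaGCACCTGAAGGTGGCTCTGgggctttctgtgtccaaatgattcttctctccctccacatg
Trappc9 intron 4, chr15:73038807-73038906, plus strand: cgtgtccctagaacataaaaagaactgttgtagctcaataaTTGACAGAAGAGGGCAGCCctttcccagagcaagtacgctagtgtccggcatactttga
beyond the Trappc9 start, chr15:73068995-73069094, plus strand: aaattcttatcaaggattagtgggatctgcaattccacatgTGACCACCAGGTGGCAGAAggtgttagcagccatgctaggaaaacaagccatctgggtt

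The sites at the Peg13 start were both on the minus strand, the strand Peg13 is read from. One was centred 232 bp inside the gene, scored 15.91 bits and held 3 CpG. The other was centred 52 bp upstream of the start, scored 16.05 bits and held 1 CpG. Their starts were 284 bp apart and they shared 15 of 19 bases, while the 100 base windows around them shared 50 bases when laid on each other at the motif. CpG methylation of these bases was not measured here.

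Over the locus 23 motif matches were found in 18 of the 108 peaks, 14 on the plus and 9 on the minus strand. This was 16.7% of the locus peaks, against 25.3% of all merged peaks and 7.16% of 168579 regions of the same lengths moved by 10 kb to where no peak was listed. Of the peaks those regions were moved from, 21.1% held a match. Among the peaks in the top 10% of the genome by level, 87.5% held a match. The matrix was learned from strong peaks of the same data, so that share is not independent of it. Level also followed length over all peaks (correlation 0.96), and longer peaks have more room for a match. The shares of the locus and of all peaks were not matched for level. In the locus the 18 peaks with a match had a median level of 0.99 (log2 RPM), and the 90 without one had -0.20. Those with a match were also longer, with a median of 2100 bp against 900 bp. Level is not divided by length, so the contrast in level is not separate from length. All 6 peaks with a mean level of 2 or more held a match, as did 7 of the 10 highest. Only 6 of the 23 matched sites held a CpG, and the 4 CpG of the Peg13 sites were the most in 1 peak. Matches in repeat-masked sequence numbered 3. The stricter core form of the CTCF motif, found in 3.79% of all peaks, was present in 2 peaks, the one upstream of Kcnk9 (22.08 bits) and the one beyond the Trappc9 start (21.17 bits). A match is a description of sequence and not a measured binding site.

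The locus was dense in listed peaks. It held 18 peaks per 100 kb, against 8.88 on all of chromosome 15, and they covered 22.4% of the window, against 11.3% of the chromosome. A motif match was present in 16.7% of the locus peaks, against 25.7% of those on chromosome 15. Without input values, weak peaks could not be told from raised background, so this is not a density of binding sites. Median peak length was 975 bp, against 750 bp over all merged peaks, and the median gap between neighbours was 2.1 kb. The largest stretch without a peak was 22.9 kb, chr15:72925951-72948900 in Trappc9. Introns of Trappc9 outside Peg13 held 86 of the 108 peaks, and 6 touched an exon of Trappc9. Intron 16 held 33 with the Peg13 start counted, intron 20 held 25 and intron 18 held 9. Kcnk9 held 8 peaks, the stretch between Kcnk9 and Trappc9 held 6, the last of which reached into Trappc9 exon 22, and 1 lay at each end of the window.

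**Figure D1:**
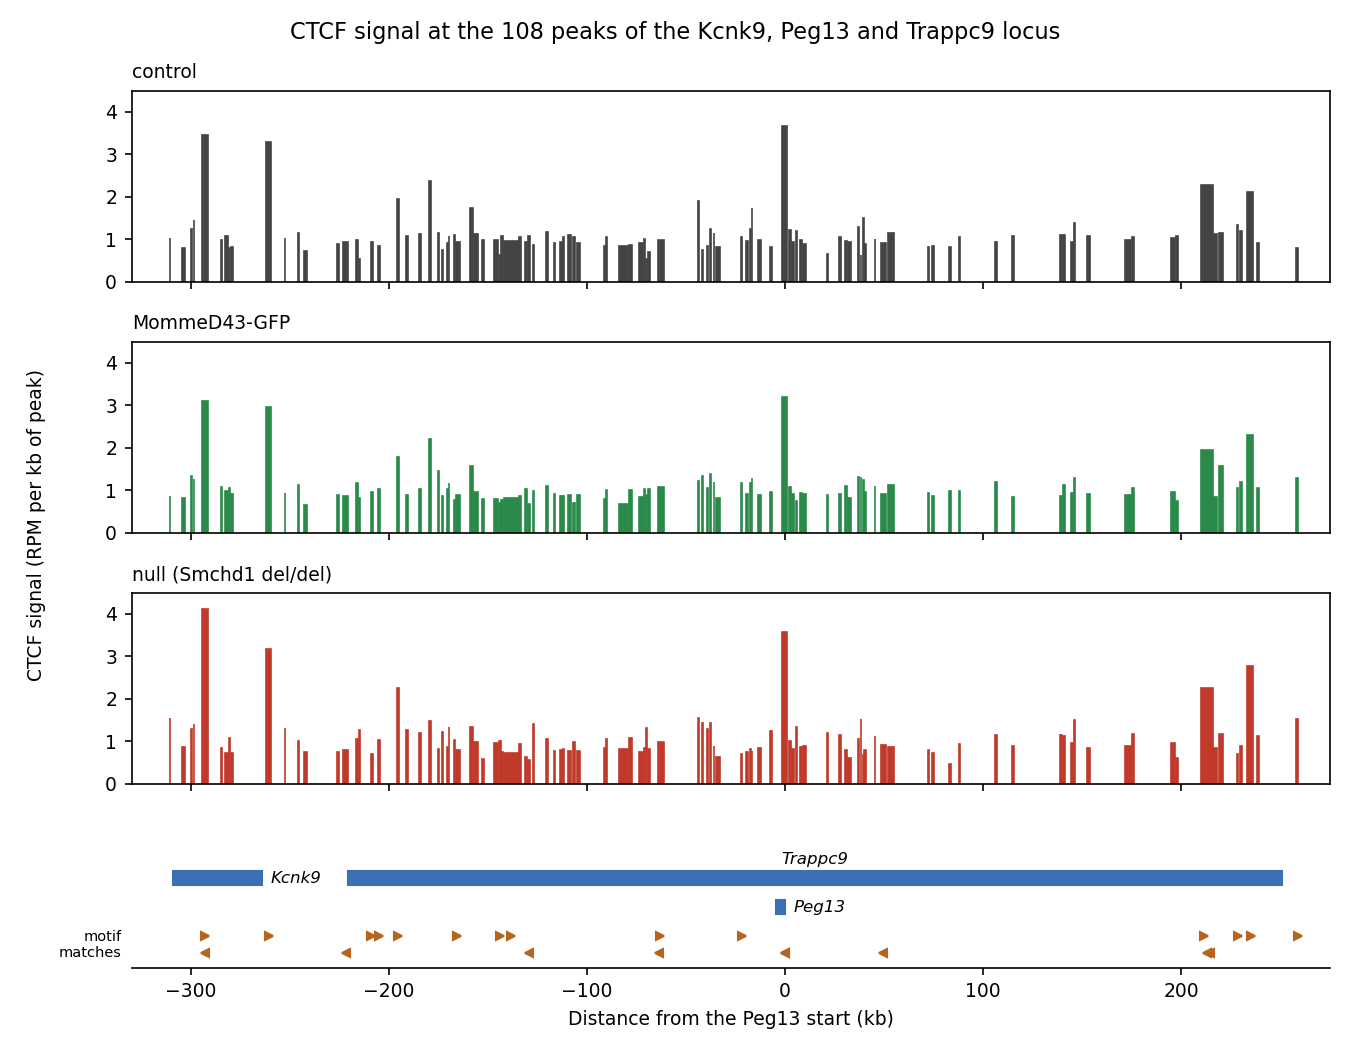
CTCF signal (RPM per kb of peak, linear scale) at each of the 108 peaks in control, MommeD43-GFP and null, against distance from the Peg13 start in kb. Bars have the width of the peak with a thin outline that keeps short peaks visible, and blue bars mark the genes and triangles the motif matches by strand. Most peaks stand near 1 RPM per kb in all 3 panels, and the 7 highest by the mean of the genotypes include the one at the Peg13 start.

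Most of these peaks were shallow. Divided by length, the median peak of the locus held -0.06 (log2 RPM per kb), against -0.03 for all merged peaks, and levels followed peak length closely, with a Spearman correlation of 0.97 between level and length over the 108 peaks, which share their libraries. Only 7 peaks reached the 95th percentile of all merged peaks per kb, a value of 0.96, while the other 101 lay between -0.49 and 0.62. The 5 highest peaks by level held 29.0% of the summed signal of the locus in control, 27.1% in MommeD43-GFP and 31.3% in null. The 10 highest held 40%, 38.5% and 41.9% in the same order. Level is not divided by length, so long peaks weigh more in these shares, and no like share was computed outside the locus.

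The peak over the Peg13 start stood out by its level and its sequence. chr15:72808651-72811350 (2700 bp) covers the 5′ part of Peg13 exon 1 and the sequence just upstream, and lies in Trappc9 intron 16. Its level was 3.3 log2 RPM in control, 3.11 in MommeD43-GFP and 3.27 in null. By level it was the third of the locus and stood at the 97.7th percentile of all merged peaks. Per kb it stood at the 99.6th percentile, with 1.87 in control, 1.68 in MommeD43-GFP and 1.84 in null. Its CpG density was also unusual, at 3.89 CpG per 100 bp, the 98.1th percentile of all peaks. Repeats made up 6.63% of its sequence, against a median of 7.94% over the locus peaks.

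CTCF at the Peg13 start was kept in both mutant genotypes. MommeD43-GFP was lower than control by 0.19 on the log2 scale (95% counting interval of the difference -0.30 to -0.08). Null differed from control by -0.03 (-0.15 to 0.09), so no change beyond counting error was seen. Between the mutants, MommeD43-GFP minus null was -0.16 (-0.28 to -0.04). These sizes are small, and the spread between libraries, which the table does not hold, could exceed them. The peak took 5.95% of the locus signal in control, 5.54% in MommeD43-GFP and 6.11% in null. With differences centred by GC content, the null difference was 0.11 rather than -0.03, and the MommeD43-GFP difference was -0.11 rather than -0.19. Among all merged peaks of like level, the central 95% of MommeD43-GFP differences from control ran from -0.289 to 0.274, so this fall lay inside it.

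The other peaks within 2 kb of the Peg13 gene were weak. Levels at chr15:72802801-72803700 (900 bp) were -0.43 in control, -0.22 in MommeD43-GFP and 0.16 in null. This one, past the 3′ end of Peg13, was higher in null by 0.59 ± 0.20. In control chr15:72812251-72813300 (1050 bp) stood at 0.36, in MommeD43-GFP at 0.18 and in null at 0.09. On the upstream side the order was thus control, MommeD43-GFP and null, with differences of -0.18 ± 0.16 and -0.26 ± 0.18 from control, both within 2 counting errors.

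Kcnk9 had a strong peak upstream of its start and another in intron 1. chr15:72547951-72550650 (2700 bp) began 1.61 kb upstream of the GENCODE start of Kcnk9, and the RefSeq transcript, which extends to position 72548614, starts within it. It measured 3.16 in control, 2.99 in MommeD43-GFP and 3.09 in null. The differences from control were -0.16 ± 0.06 in MommeD43-GFP and -0.07 ± 0.07 in null, so MommeD43-GFP was the lowest and null differed by about 1 counting error. Its CpG density was 2.41 per 100 bp, and it held the highest scoring motif of the locus. chr15:72516001-72518700 (2700 bp), in intron 1, was the second of the locus by level. Control held 3.23, MommeD43-GFP held 3.07 and null held 3.47. Here the mutants went opposite ways, with MommeD43-GFP lower by 0.16 ± 0.06 and null higher by 0.24 ± 0.06. Per kb this peak held 1.79 in control, 1.63 in MommeD43-GFP and 2.04 in null, the highest per kb value of the locus in the null column. MommeD43-GFP minus null there was -0.40, outside the central 95% of all peaks of like level. The falls of MommeD43-GFP from control at both strong Kcnk9 peaks lay inside the central 95% for that comparison.

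The remaining peaks of Kcnk9 were shallow. chr15:72505501-72507150 (1650 bp) held 0.38 in control, 0.43 in MommeD43-GFP and 0.54 in null. Levels at chr15:72510451-72510750 (300 bp) were -1.44 in control, -1.32 in MommeD43-GFP and -1.36 in null. In control chr15:72511651-72511950 (300 bp) stood at -1.19, in MommeD43-GFP at -1.39 and in null at -1.24. All of these lie in the non-coding part of exon 2, the 3′ untranslated end of Kcnk9, and none differed from control by more than 0.20. chr15:72525451-72525900 (450 bp) held -1.19 in control, -1.04 in MommeD43-GFP and -1.42 in null. Levels at chr15:72527551-72529200 (1650 bp) were 0.84 in control, 0.70 in MommeD43-GFP and 0.24 in null. In control chr15:72529351-72529950 (600 bp) stood at -1.07, in MommeD43-GFP at -0.66 and in null at -0.62. In this run of intron 1, null was lower at the longest peak by 0.60 ± 0.16 and MommeD43-GFP by 0.14 ± 0.13. chr15:72530251-72531750 (1500 bp) held 0.27 in control, 0.44 in MommeD43-GFP and 0.12 in null. Over the 8 Kcnk9 peaks the median difference from control was 0.09 in MommeD43-GFP and 0.01 in null, with 5 and 4 peaks higher.

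Past the 3′ end of Kcnk9 the window held a single small peak. Levels at chr15:72499501-72499800 (300 bp) were -1.69 in control, -1.93 in MommeD43-GFP and -1.1 in null. It had 12.9 reads per library in control, and neither mutant differed from control beyond its 95% counting interval, while MommeD43-GFP was lower than null by 0.82 ± 0.31. Between Kcnk9 and Trappc9, apart from the strong peak upstream of Kcnk9, levels were low. In control chr15:72557551-72558000 (450 bp) stood at -1.12, in MommeD43-GFP at -1.24 and in null at -0.76. chr15:72564451-72565050 (600 bp) held -0.54 in control, -0.58 in MommeD43-GFP and -0.73 in null. Levels at chr15:72567301-72569100 (1800 bp) were 0.37 in control, 0.25 in MommeD43-GFP and 0.45 in null. Repeats made up 65.6%, 44.5% and 34.6% of these sequences, and none of the differences exceeded 2 counting errors. In control chr15:72584101-72584850 (750 bp) stood at -0.59, in MommeD43-GFP at -0.59 and in null at -0.82. chr15:72587101-72589650 (2550 bp) held 1.27 in control, 1.14 in MommeD43-GFP and 1.01 in null. The last of these lies past the 3′ end of Trappc9, overlaps the last bases of its exon 22, which are non-coding, and holds a motif match of 15.33 bits.

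Trappc9 intron 20 held 25 peaks, the tallest of them long and broad. chr15:72668401-72675750 spans 7350 bp, the longest of the locus, with a match of 15.93 bits. Its level was 2.82 log2 RPM in control, 2.61 in MommeD43-GFP and 2.42 in null. MommeD43-GFP was lower there by 0.21 ± 0.07 and null by 0.40 ± 0.08, so control was highest. Per kb it was not among the 7. A shorter peak, chr15:72614251-72615150 (900 bp), reached the 95th percentile per kb with a match of 16.95 bits. It measured 0.82 in control, 0.68 in MommeD43-GFP and 1.02 in null. Its differences of -0.14 ± 0.14 and 0.21 ± 0.14 lay within 2 counting errors. chr15:72630301-72631500 (1200 bp) was the other intron 20 peak of the 7, and the one with no match at 12 bits. Control held 1.5, MommeD43-GFP held 1.41 and null held 0.82. Null was lower by 0.68 ± 0.13 while MommeD43-GFP was lower by 0.10 ± 0.11, and per kb the null value was 0.56, against 1.24 in control and 1.14 in MommeD43-GFP.

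The other peaks of intron 20 were read in order from the 3′ end of Trappc9. Levels at chr15:72593551-72594450 (900 bp) were -0.18 in control, 0.09 in MommeD43-GFP and -0.10 in null. In control chr15:72595351-72595650 (300 bp) stood at -2.62, in MommeD43-GFP at -2.05 and in null at -1.4. chr15:72601051-72602400 (1350 bp) held 0.34 in control, 0.36 in MommeD43-GFP and -0.09 in null. The 300 bp peak was the lowest of the locus by level and was 1.22 ± 0.40 higher in null, at 6.78 reads per library in control, 11.9 in MommeD43-GFP and 19 in null. Levels at chr15:72604801-72605550 (750 bp) were -0.67 in control, -0.39 in MommeD43-GFP and -0.37 in null. In control chr15:72618901-72619800 (900 bp) stood at -0.06, in MommeD43-GFP at -0.33 and in null at 0.18. chr15:72625651-72626250 (600 bp) held -0.56 in control, -0.69 in MommeD43-GFP and -0.47 in null. Each of these differed from control by 0.30 or less in both mutants. Levels at chr15:72635251-72635550 (300 bp) were -1.53 in control, -1.19 in MommeD43-GFP and -2.01 in null. In control chr15:72637051-72637650 (600 bp) stood at -1.16, in MommeD43-GFP at -0.94 and in null at -0.46. chr15:72639601-72640200 (600 bp) held -0.87 in control, -0.69 in MommeD43-GFP and -0.95 in null. Null stood 0.48 ± 0.36 below control at the first, within 2 counting errors, and 0.70 ± 0.26 above it at the next. Levels at chr15:72640351-72640650 (300 bp) were -1.63 in control, -1.52 in MommeD43-GFP and -1.31 in null. In control chr15:72642901-72643800 (900 bp) stood at -0.01, in MommeD43-GFP at -0.51 and in null at -0.12. chr15:72644251-72645900 (1650 bp) held 0.62 in control, 0.55 in MommeD43-GFP and 0.40 in null. MommeD43-GFP was lower at the 900 bp peak by 0.50 ± 0.19, and the others were within 2 counting errors of control. Levels at chr15:72651001-72652650 (1650 bp) were 1.51 in control, 1.37 in MommeD43-GFP and 1.16 in null. In control chr15:72653251-72655050 (1800 bp) stood at 1.02, in MommeD43-GFP at 0.77 and in null at 0.83. chr15:72657151-72658350 (1200 bp) held 0.25 in control, -0.06 in MommeD43-GFP and -0.53 in null. Control was highest at all of these, and null was lower at the last by 0.78 ± 0.21. Levels at chr15:72663451-72665550 (2100 bp) were 1.03 in control, 0.73 in MommeD43-GFP and 1.02 in null. In control chr15:72666001-72666750 (750 bp) stood at -1.1, in MommeD43-GFP at -0.92 and in null at -0.42. chr15:72667051-72667950 (900 bp) held -0.03 in control, -0.53 in MommeD43-GFP and -0.58 in null. Here MommeD43-GFP was lower at the first and last peaks. Null was higher at the middle one by 0.68 ± 0.25 and lower at the last by 0.55 ± 0.22. Levels at chr15:72675901-72677100 (1200 bp) were 0.33 in control, 0.08 in MommeD43-GFP and 0.15 in null. In control chr15:72679201-72679950 (750 bp) stood at -0.51, in MommeD43-GFP at -0.37 and in null at -1.1. chr15:72680551-72681600 (1050 bp) held 0.18 in control, -0.50 in MommeD43-GFP and -0.74 in null. The 1050 bp peak, whose match is printed above at 12.45 bits, was lower in both mutants, by 0.67 ± 0.19 in MommeD43-GFP and 0.91 ± 0.22 in null. Levels at chr15:72683101-72683550 (450 bp) were -1.35 in control, -1.2 in MommeD43-GFP and -0.66 in null. At 450 bp this small peak was higher in null by 0.69 ± 0.27.

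Introns 19 and 18 of Trappc9 carried on the same pattern of shallow peaks with control often highest. The peaks of intron 17 were shallow too, but MommeD43-GFP or null was highest at each of them. In control chr15:72689401-72690750 (1350 bp) stood at 0.65, in MommeD43-GFP at 0.57 and in null at 0.51. chr15:72693451-72694350 (900 bp) held -0.29 in control, -0.30 in MommeD43-GFP and -0.53 in null. Levels at chr15:72696451-72697950 (1500 bp) were 0.49 in control, 0.36 in MommeD43-GFP and 0.25 in null. The 900 bp peak touches exon 19, which is coding, and control was highest at each. In control chr15:72698101-72698850 (750 bp) stood at -0.33, in MommeD43-GFP at -0.62 and in null at -0.69. chr15:72700501-72702150 (1650 bp) held 0.86 in control, 0.54 in MommeD43-GFP and 0.33 in null. Levels at chr15:72703201-72704250 (1050 bp) were 0.15 in control, -0.43 in MommeD43-GFP and 0.06 in null. At the 1650 bp peak MommeD43-GFP was lower by 0.32 ± 0.14 and null by 0.53 ± 0.16. In control chr15:72705451-72706800 (1350 bp) stood at 0.29, in MommeD43-GFP at 0.26 and in null at 0.05. chr15:72718801-72719850 (1050 bp) held -0.17 in control, -0.25 in MommeD43-GFP and -0.16 in null. Levels at chr15:72720001-72720450 (450 bp) were -1.07 in control, -1.14 in MommeD43-GFP and -1.09 in null. The values of these were within 0.24 of control. chr15:72726451-72730800 (4350 bp) was among the 10 highest by level. Its level was 1.88 log2 RPM in control, 1.54 in MommeD43-GFP and 1.84 in null. MommeD43-GFP was lower there by 0.34 ± 0.10 and null by 0.04 ± 0.10. In control chr15:72731551-72732750 (1200 bp) stood at 0.05, in MommeD43-GFP at 0.26 and in null at 0.38. chr15:72736501-72738600 (2100 bp) held 0.95 in control, 0.82 in MommeD43-GFP and 0.64 in null. Levels at chr15:72738901-72739500 (600 bp) were -0.73 in control, -0.69 in MommeD43-GFP and -0.97 in null. The 2100 bp peak covers coding exon 18 and was lower in null by 0.30 ± 0.15. In control chr15:72739951-72740550 (600 bp) stood at -1.63, in MommeD43-GFP at -0.91 and in null at -0.36. chr15:72741151-72742200 (1050 bp) held -0.45 in control, 0.10 in MommeD43-GFP and -0.20 in null. These were higher in both mutants, the first by 0.71 ± 0.28 in MommeD43-GFP and by 1.27 ± 0.28 in null, the largest rise of the locus in that comparison. It held 13.5 reads per library in control and 39 in null. chr15:72746101-72749100 (3000 bp) in intron 17 held a match of 17.35 bits and was among the 10 highest. It measured 1.55 in control, 1.69 in MommeD43-GFP and 1.56 in null. It stood 0.13 ± 0.10 above control in MommeD43-GFP and 0.00 ± 0.11 in null.

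Within intron 16, on the 3′ side of Peg13, peaks were mostly small and short. Levels at chr15:72766351-72766650 (300 bp) were -0.82 in control, -1.46 in MommeD43-GFP and -1.12 in null. In control chr15:72768301-72768600 (300 bp) stood at -2.15, in MommeD43-GFP at -1.31 and in null at -1.22. chr15:72771001-72771600 (600 bp) held -0.97 in control, -0.64 in MommeD43-GFP and -0.38 in null. Null exceeded control at the middle and last of these, by 0.94 ± 0.35 and 0.59 ± 0.24, with MommeD43-GFP in between. Levels at chr15:72772351-72772650 (300 bp) were -1.42 in control, -1.28 in MommeD43-GFP and -1.22 in null. In control chr15:72774151-72774600 (450 bp) stood at -0.94, in MommeD43-GFP at -0.88 and in null at -1.31. chr15:72775201-72777450 (2250 bp) held 0.87 in control, 0.86 in MommeD43-GFP and 0.48 in null. At the longest, null was lower by 0.39 ± 0.15 and MommeD43-GFP differed by -0.01 ± 0.13. Levels at chr15:72788101-72788700 (600 bp) were -0.67 in control, -0.52 in MommeD43-GFP and -1.27 in null. In control chr15:72790351-72791400 (1050 bp) stood at 0.01, in MommeD43-GFP at -0.06 and in null at -0.34. chr15:72792601-72793050 (450 bp) held -0.84 in control, -0.91 in MommeD43-GFP and -1.43 in null. Null was lower at these by 0.35 to 0.60, while MommeD43-GFP stayed within 0.16 of control. Levels at chr15:72793501-72793800 (300 bp) were -0.95 in control, -1.37 in MommeD43-GFP and -2.1 in null. In control chr15:72796801-72798150 (1350 bp) stood at 0.43, in MommeD43-GFP at 0.25 and in null at 0.18. The 300 bp peak, at -16.7 kb from the Peg13 start, showed the largest fall of the locus in null, by 1.15 ± 0.35, from 21.6 reads per library in control to 11.7.

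On the upstream side of Peg13, still in intron 16, peaks were again mostly shallow. chr15:72813751-72814950 (1200 bp) held 0.17 in control, 0.14 in MommeD43-GFP and -0.04 in null. Levels at chr15:72815851-72816300 (450 bp) were -0.89 in control, -1.6 in MommeD43-GFP and -0.72 in null. In control chr15:72817801-72819000 (1200 bp) stood at 0.23, in MommeD43-GFP at 0.18 and in null at 0.04. The 450 bp peak was lower in MommeD43-GFP by 0.70 ± 0.27, the largest fall of that comparison, and lower than null by 0.88. chr15:72819451-72820650 (1200 bp) held 0.10 in control, 0.11 in MommeD43-GFP and 0.09 in null. Levels at chr15:72831301-72832050 (750 bp) were -1.0 in control, -0.59 in MommeD43-GFP and -0.16 in null. In control chr15:72837451-72838500 (1050 bp) stood at 0.14, in MommeD43-GFP at -0.07 and in null at 0.26. At the 750 bp peak both mutants were above control, null by 0.84 ± 0.24. chr15:72840601-72841500 (900 bp) held -0.22 in control, -0.02 in MommeD43-GFP and -0.49 in null. Levels at chr15:72841951-72843600 (1650 bp) were 0.61 in control, 0.44 in MommeD43-GFP and -0.01 in null. In control chr15:72846901-72847650 (750 bp) stood at -0.05, in MommeD43-GFP at -0.02 and in null at -0.32. Null was lowest at each of these, by 0.62 ± 0.18 at the 1650 bp peak. chr15:72848551-72848850 (300 bp) held -2.4 in control, -1.35 in MommeD43-GFP and -1.13 in null. Levels at chr15:72849751-72850050 (300 bp) were -1.16 in control, -1.43 in MommeD43-GFP and -2.29 in null. In control chr15:72850351-72851100 (750 bp) stood at -0.59, in MommeD43-GFP at -0.48 and in null at -0.76. The neighbouring 300 bp peaks here moved in opposite directions in null, by 1.26 ± 0.37 and by -1.13 ± 0.37. The first was also the highest difference of MommeD43-GFP from control, 1.04 ± 0.35, at 7.91 reads per library in control. chr15:72855451-72855900 (450 bp) held -1.15 in control, -1.02 in MommeD43-GFP and -0.97 in null. Levels at chr15:72858751-72861450 (2700 bp) were 1.31 in control, 1.29 in MommeD43-GFP and 1.3 in null. In control chr15:72862501-72865200 (2700 bp) stood at 1.64, in MommeD43-GFP at 1.6 and in null at 1.23. The pair of 2700 bp peaks were stronger, and the one with a match of 18.69 bits, in repeat-masked sequence, stayed within 0.02 of control in both mutants, while the other was lower in null by 0.40 ± 0.12. chr15:72882451-72883200 (750 bp) held -0.69 in control, -0.49 in MommeD43-GFP and -0.77 in null. Levels at chr15:72884401-72885450 (1050 bp) were -0.18 in control, -0.15 in MommeD43-GFP and -0.41 in null. In control chr15:72892951-72893850 (900 bp) stood at -0.46, in MommeD43-GFP at -0.17 and in null at -1.22. The last of these was the highest in MommeD43-GFP minus null, by 1.05, with null 0.75 ± 0.27 below control. chr15:72897901-72898800 (900 bp) held -0.07 in control, -0.17 in MommeD43-GFP and -0.25 in null. All 3 genotypes were within 0.18 of each other there.

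Further towards the Trappc9 start, the stretch from intron 15 to intron 7 held 11 peaks. Levels at chr15:72916351-72917250 (900 bp) were -0.24 in control, 0.10 in MommeD43-GFP and 0.05 in null. In control chr15:72924751-72925950 (1200 bp) stood at 0.38, in MommeD43-GFP at 0.00 and in null at 0.11. chr15:72948901-72949950 (1050 bp) held 0.22 in control, -0.15 in MommeD43-GFP and 0.27 in null. The middle peak touches coding exon 15, and MommeD43-GFP was lower there by 0.38 ± 0.16. Levels at chr15:72950701-72951450 (750 bp) were -0.27 in control, -0.24 in MommeD43-GFP and -0.25 in null. In control chr15:72954901-72955650 (750 bp) stood at -0.50, in MommeD43-GFP at -0.50 and in null at -0.49. chr15:72956401-72956850 (450 bp) held -0.68 in control, -0.78 in MommeD43-GFP and -0.56 in null. Differences from control were at most 0.12 in these. Levels at chr15:72962701-72964500 (1800 bp) were 0.97 in control, 0.71 in MommeD43-GFP and 0.60 in null. In control chr15:72981901-72984750 (2850 bp) stood at 1.5, in MommeD43-GFP at 1.35 and in null at 1.35. chr15:72985351-72986400 (1050 bp) held 0.16 in control, 0.14 in MommeD43-GFP and 0.31 in null. The first covers coding exon 9 and was lower in null by 0.37 ± 0.15, and the second, of 2850 bp, was the tenth highest of the locus. Levels at chr15:73005151-73007100 (1950 bp) were 1.02 in control, 0.91 in MommeD43-GFP and 0.90 in null. In control chr15:73007851-73008900 (1050 bp) stood at 0.17, in MommeD43-GFP at -0.34 and in null at -0.65. The latter fell by 0.51 ± 0.18 in MommeD43-GFP and by 0.82 ± 0.22 in null.

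The tallest peak of the locus by level lay over exon 6 of Trappc9. chr15:73020451-73026150 (5700 bp) held 3 motif matches, the best at 17.94 bits. Control held 3.69, MommeD43-GFP held 3.48 and null held 3.68. MommeD43-GFP was lower by 0.21 ± 0.05, and null matched control to within 0.01. Per kb it held 1.18, 0.97 and 1.17 in the same order, below the peaks at Peg13 and Kcnk9. chr15:73026601-73028400 (1800 bp) held 1.01 in control, 0.61 in MommeD43-GFP and 0.62 in null. Levels at chr15:73029301-73031250 (1950 bp) were 1.17 in control, 1.62 in MommeD43-GFP and 1.2 in null. Next to it in intron 5, the first was lower in both mutants by about 0.40 and the second was higher in MommeD43-GFP by 0.45 ± 0.11 but not in null, at 0.02 ± 0.13. chr15:73043701-73046400 (2700 bp) in intron 4 was the fifth of the locus by level, with a repeat-masked match of 12.05 bits in a sequence that is 40.9% repeats. Its level was 2.52 log2 RPM in control, 2.64 in MommeD43-GFP and 2.9 in null. Null was higher than control by 0.39 ± 0.08 and MommeD43-GFP by 0.12 ± 0.07. In control chr15:73038301-73039200 (900 bp) stood at 0.27, in MommeD43-GFP at -0.09 and in null at -0.67. chr15:73040101-73040850 (750 bp) held -0.16 in control, -0.15 in MommeD43-GFP and -0.58 in null. Levels at chr15:73048501-73049550 (1050 bp) were -0.07 in control, 0.15 in MommeD43-GFP and 0.23 in null. At the first of these, whose match of 16.62 bits is printed above, null was lower by 0.94 ± 0.22 and MommeD43-GFP by 0.36 ± 0.17.

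No peak was listed over the Trappc9 start. The nearest lay 6.95 kb upstream, chr15:73068151-73069500 (1350 bp), with a core motif of 21.17 bits. It measured 0.08 in control, 0.79 in MommeD43-GFP and 1.05 in null. Both mutants were higher than control there, MommeD43-GFP by 0.71 ± 0.15 and null by 0.97 ± 0.16. The peak lay just above the central 95% of all peaks of like level in both comparisons (upper edges 0.685 and 0.965). In the next lower bin of level the upper edges were 0.679 and 0.981, and the null rise would lie inside the latter. Its place outside the range in null thus depends on the binning. Among the 70 locus peaks whose level reached the median of all merged peaks, it had the largest rise from control in both mutants. Its sequence was 35.3% repeats. Its GC content was 36.2%, against a median of 49.3% over the locus peaks, and the effect of GC centring on this peak was not tested.

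**Figure D2:**
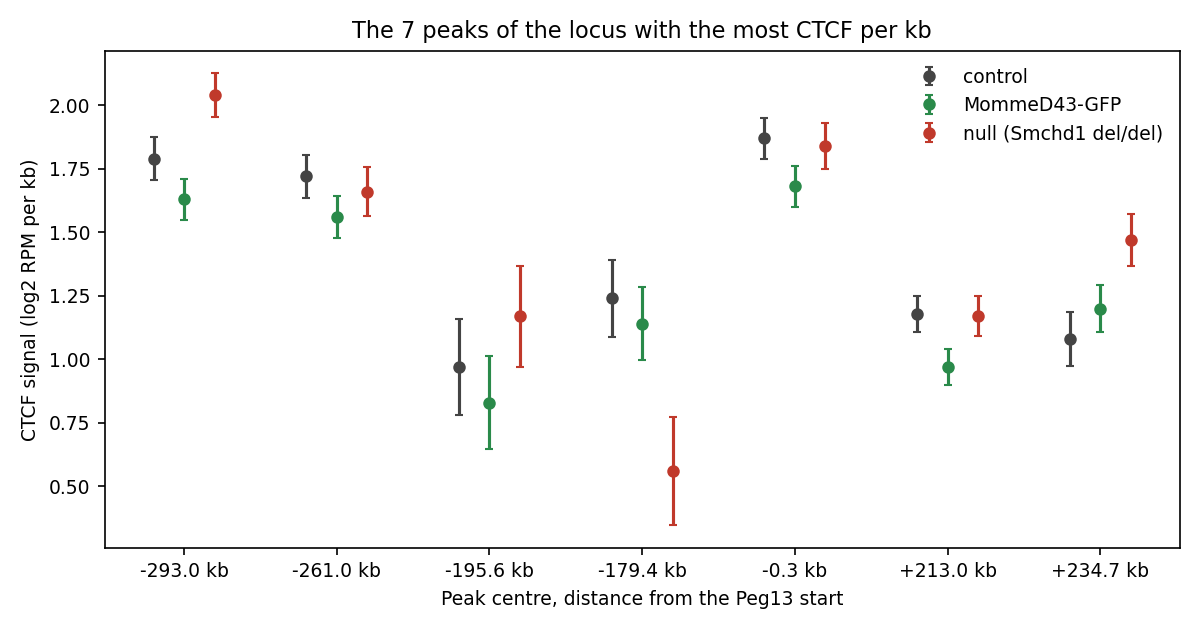
CTCF signal (log2 RPM per kb) in control, MommeD43-GFP and null at the 7 locus peaks at or above the 95th percentile per kb, labelled by the distance of their centre from the Peg13 start. Points are the authors' mean over a genotype's libraries and bars are 95% counting intervals without the spread between libraries. The peak at the Peg13 start stands at 1.87, 1.68 and 1.84, and null is the lowest of the genotypes only at the peak at -179.4 kb, on the 3′ side.

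Over the whole locus, differences from control were small and mostly below 0. The median difference over the 108 peaks was -0.05 (95% counting interval -0.09 to 0.00) for MommeD43-GFP minus control, against 0.01 over all merged peaks, and -0.11 (-0.16 to -0.06) for null minus control, against -0.04. MommeD43-GFP minus null had a median of 0.04 (-0.01 to 0.09), against 0.03. With differences centred by GC content these medians were -0.0071, -0.0263 and -0.0118 in the same order, so their size depends on the scaling, as does the sign of the last. Summed over the locus, the signal was 166 RPM in control, 156 in MommeD43-GFP and 158 in null. On the log2 scale the sum differed from control by -0.08 (-0.11 to -0.06) in MommeD43-GFP and by -0.07 (-0.10 to -0.04) in null. The mutants differed by -0.02 (-0.05 to 0.01). The null value was 0.01 after centring by GC content and -0.01 after centring each column on its median, so its direction depends on the scaling.

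Few peaks of the locus were far apart between genotypes. In MommeD43-GFP minus control, 1 of 108 was up by 2-fold or more and 0 were down that far, where 2.08% and 0.718% of all merged peaks were. At 1.5-fold, 4 were higher and 3 lower, where 8.64% and 5.84% of all peaks were. Lower at any size were 62, or 57.4%, against a background of 49.2%. In null minus control, 3 were up by 2-fold or more and 2 down (backgrounds 3.31% and 1.85%), and at 1.5-fold 11 were higher and 13 lower (10.7% and 10.3%). Lower at any size were 67, or 62.0%, against 53.4%. In MommeD43-GFP minus null, 1 was up by 2-fold or more and 0 were down (1.26% and 1.08%), 6 were 1.5-fold higher and 3 lower (7.93% and 6.13%), and 49, or 45.4%, were lower at any size, against 46.1%. Every peak that was 2-fold apart from control or between mutants was weak, since none of the 70 peaks whose level reached the median of all merged peaks was 2-fold apart in any comparison.

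**Figure D3:**
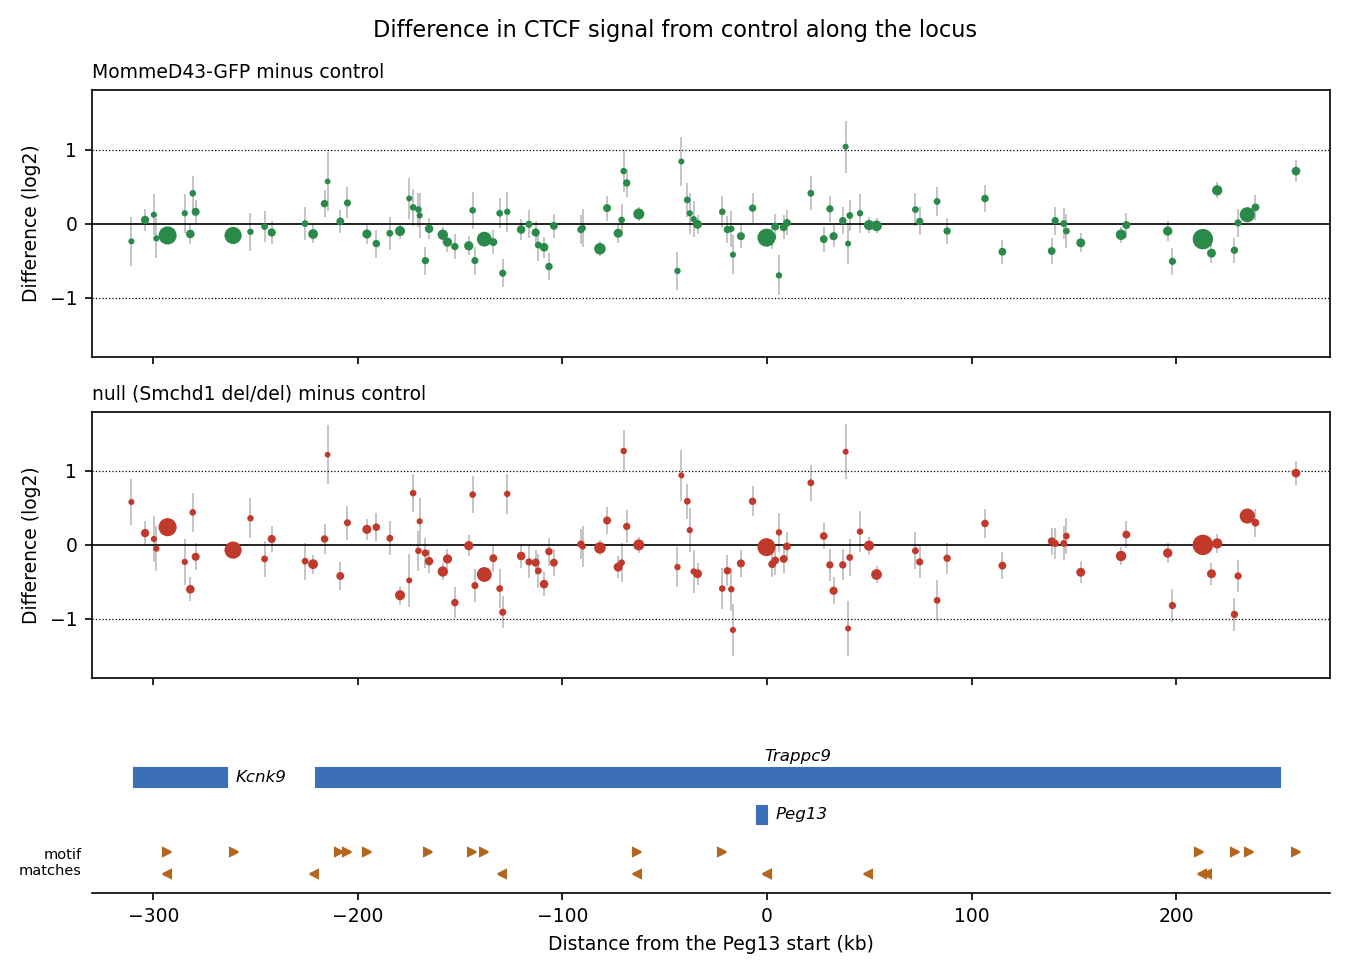
Log2 difference from control at each locus peak for MommeD43-GFP (upper) and null (middle), against distance from the Peg13 start in kb, with point area rising with level, bars of 1 counting standard error and dotted lines at 2-fold. The large points stay close to 0 and the peaks past the dotted lines are small ones.

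By stretch of the locus, in the 52 peaks of Trappc9 between its 3′ end and Peg13, the median difference from control was -0.07 in MommeD43-GFP and -0.19 in null, with 31 and 34 peaks lower. In the 37 peaks between Peg13 and the Trappc9 start it was -0.02 and -0.11, with 20 and 23 lower. In the 6 peaks between Kcnk9 and Trappc9 it was -0.11 and -0.13. These stretches were not tested against each other. The order null below MommeD43-GFP below control was the most frequent, in 34 peaks, or 31.5%, against 22.4% of all merged peaks. The order control below null below MommeD43-GFP was the rarest, in 7 peaks, or 6.48%, against 15.2%.

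Peaks with and without a motif match were also set side by side. The 18 with a match had a median difference of -0.10 in MommeD43-GFP and -0.02 in null, and the 90 without one had -0.04 and -0.15. Counting intervals left out 0 above it in 6 peaks of MommeD43-GFP minus control (5.56% of the locus, against 17.1% of all merged peaks) and below it in 20 (18.5%, against 15.2%). In null minus control this was so above 0 in 13 peaks (12%, against 17.5%) and below 0 in 24 (22.2%, against 18.4%). MommeD43-GFP minus null had 18 above and 18 below, each 16.7% of the locus, against 15.1% and 13.9%.

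**Figure D4:**
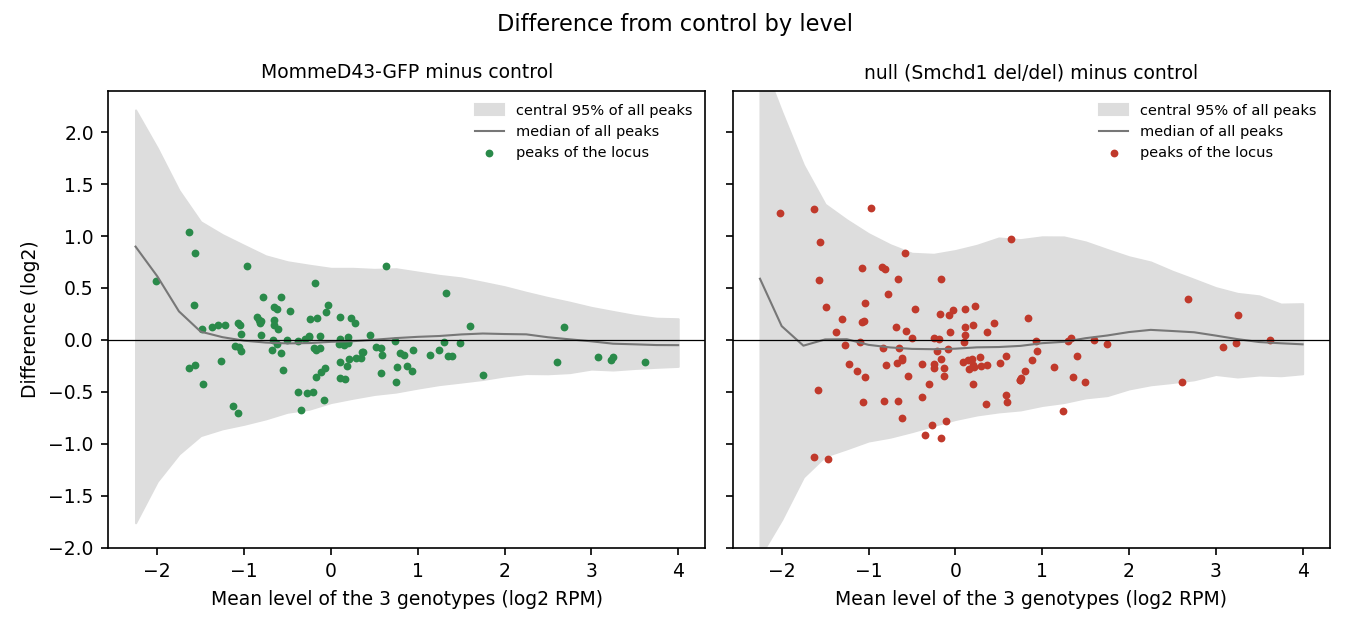
Log2 difference from control against the mean level of the 3 genotypes (log2 RPM) for the locus peaks in MommeD43-GFP (left) and null (right), over the central 95% (grey) and median (line) of all merged peaks in bins of level. In MommeD43-GFP 1 locus peak lies above the grey band and 1 below, and in null 3 lie above and 5 below.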

How the data were processed

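CTCF ChIP-seq was done on 8 libraries of 3 genotypes, with 1 input library. The authors trimmed reads with Trim Galore 0.4.4 and cutadapt 2.9, aligned them to GRCm38 with Bowtie2 2.3.4.1 and SAMtools 1.7, called peaks per genotype in SeqMonk and merged them. The deposited table holds the log2 RPM value per peak and genotype, averaged over libraries by the authors. Other per-sample columns numbered 0.

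Reads per library were decoded from the steps of the lowest values, where 0 reads had been entered as 0.9. All of the low values tested (3306 in control, 461 in MommeD43-GFP and 794 in null) were whole products within 0.01. Differences are differences of log2 values. The counting error followed from the decoded reads. The motif matrix was learned from 5000 strong peaks of at most 1500 bp off chromosome 15, and scripts were tested on simulated data. Python 3.11.15, numpy 2.4.6 and pandas 2.3.3 were used with the GRCm38.p6 sequence and GENCODE M21.

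Every peak is given in its 3 values. Described in full were peaks near Peg13 and the gene starts, those with a core motif, the 10 highest, those 2-fold apart and the extremes of each comparison. The members and lists were chosen with earlier results of these data known. The Dlk1 to Meg3 region, which had been planned for comparison, was not analysed here. Alternatives were other scalings, a GC and a level correction, other flanks, a level filter, a pseudocount and other folds.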

Additional observations from a re-analysis of the deposited data

How the results depend on the processing

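Of 87 recomputed values, 64 stayed within the counting interval or within 1.5 times the count, 22 moved and 1 reversed. The summed null minus control signal, -0.07 as deposited, became 0.01 with GC centring and -0.0072 with centred columns. GC centring also gave -0.0558 for summed MommeD43-GFP minus control, -0.0633 for summed MommeD43-GFP minus null (-0.0564 with centred columns), -0.0263 and -0.0118 for the medians of null minus control and MommeD43-GFP minus null, and 0.11 for null minus control at the Peg13 start. Centred columns gave a median of -0.0525 in null minus control. Peaks at or above the median level gave medians of -0.10 in MommeD43-GFP and -0.17 in null, and 0 peaks 2-fold apart in each comparison. Counts apart in MommeD43-GFP minus control, null minus control and MommeD43-GFP minus null were 1, 5 and 1 at 2-fold, 7, 24 and 9 at 1.5-fold, and 0, 0 and 0 at 4-fold. Quantile normalization gave 0 in MommeD43-GFP minus control and 2 in MommeD43-GFP minus null, and removing the level trend gave 0 in MommeD43-GFP minus control. The cause of these shifts was not tested. The difference at the Peg13 start stayed between -0.18 and -0.11 in MommeD43-GFP minus control under the alternatives. No paired analysis was possible because the columns hold means over libraries and carry no replicate numbers, and single libraries could not be left out in turn for the same reason. Depth limits peaks below the median level, where control had a median of 20.3 reads per library.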

Other observations

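The genes next in line after Trappc9 are Chrac1 and Ago2, whose bodies overlap. Chrac1, a histone fold subunit of chromatin remodelling complexes, had 1 listed peak within its body and 10 kb, where control held 0.16 (log2 RPM), MommeD43-GFP held 0.18 and null held -0.30. This peak lies past the end of Chrac1, inside Ago2, and is counted for both genes. Ago2, which encodes an Argonaute protein of small RNA silencing, had 11 with that one, with a median difference from control of -0.06 in MommeD43-GFP and -0.11 in null. The peak nearest the Ago2 start, chr15:73185001-73188600, was 66 bp from it. Control held 3.73, MommeD43-GFP held 3.5 and null held 3.56, lower than control by 0.22 ± 0.05 and 0.17 ± 0.05 (counting error). Its level was close to that of the tallest peak in Trappc9.

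Igf2 to H19 and Kcnq1 to Phlda2, the only other imprinted regions measured, had fewer listed peaks for their length than the Peg13 locus, which had 108 in 600.1 kb. Igf2 to H19, with a 20 kb flank, held 19 peaks in 131.3 kb, with median differences from control of -0.13 in MommeD43-GFP and -0.16 in null. Kcnq1 to Phlda2 held 45 peaks in 436.8 kb, with medians of -0.04 and -0.09. The regions were not tested against each other.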
